A study of Homo sapiens with 6 samples.

Results

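The 10 genes described here form the core of the circadian clock and its main feedback loops: ARNTL, CLOCK, PER1, PER2, PER3, CRY1, CRY2, NR1D1, NR1D2 and BHLHE40. They were taken by gene symbol from the 58735 genes listed for each library, and every symbol matched 1 row. The libraries are RNA-seq of MUM2B cells, a human line that the labels give as melanoma, with 3 libraries of cells that stably overexpress LACTB and 3 of cells that stably carry an empty vector. Both groups were grown in the same medium with serum and sampled without a further treatment. LACTB is a beta-lactamase-like protein of mitochondria. The promoter of the vector, and whether a line is 1 clone or a pool, are not given here. Nor is the hour of collection, so for genes that cycle over the day a change of level cannot be told apart from a shift of phase between cultures.

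In the clock of mammalian cells, the proteins of ARNTL (also called BMAL1) and CLOCK pair and activate genes through the E-box, a short DNA element. Among their targets are the PER and CRY genes, whose proteins return to the nucleus and block the pair. A second loop runs through NR1D1 and NR1D2, which encode the nuclear receptors REV-ERB alpha and REV-ERB beta; these repress ARNTL and CLOCK through an element they share with the ROR receptors. BHLHE40, also called DEC1, binds E-boxes as a repressor and responds to many other signals, low oxygen among them. In cell culture the loops run in each cell, and cells drift out of step unless a serum or hormone pulse sets them.

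Letters that match promoter elements described for these loops are shown as background on the members. RefSeq promoter windows (GRCh38.p14, from 250 bases before to 50 after a gene start) were present for all 10 members, 15 windows in all, and were searched on both strands. The E-box, CACGTG, lay in 3 of the 15 windows, those of 3 members, and in 7.26% of all 35116 promoter windows. Each line gives 30 bases on the strand of the gene, 5′ to 3′, with the element in capitals.
PER1 (chr17:8152560-8152589, minus strand): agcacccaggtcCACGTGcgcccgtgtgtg
NR1D2, upstream E-box (chr3:23945954-23945983, plus strand): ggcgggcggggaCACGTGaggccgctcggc
NR1D2, downstream E-box (chr3:23946004-23946033, plus strand): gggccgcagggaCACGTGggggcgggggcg
BHLHE40 (chr3:4979187-4979216, plus strand): tccaaCACGTGagactcatgtgatgaagcc

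The variant CACGTT was found for CLOCK, PER2, CRY1, CRY2 and NR1D1, in 5 of the 15 windows, against 5.34% of all windows. In CRY1, CRY2 and NR1D1 it is read on the opposite strand, so that the lines for NR1D1 and CRY1 show AACGTG in capitals.
NR1D1 (chr17:40100740-40100769, minus strand): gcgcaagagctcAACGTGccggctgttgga
CRY1 (chr12:107093621-107093650, minus strand): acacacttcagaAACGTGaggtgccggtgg

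The REV-ERB/ROR element was found for ARNTL, CLOCK and NR1D2, in 3 of the 15 windows, against 0.316% of all windows. In CLOCK and NR1D2 it lies on the opposite strand, and the capitals show its reverse complement.
ARNTL (chr11:13277806-13277835, plus strand): gggaaggcagAAAGTAGGTCAgggacggag
CLOCK (chr4:55546130-55546159, minus strand): ctaggccttgTGACCCACTTTattcctgtc
NR1D2 (chr3:23945978-23946007, plus strand): ctcggctcccTGACCCACATTccccggggc

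The D-box, searched as TTATGTAA or TTACGTAA, was found for PER2, PER3 and NR1D2, in 3 of the 15 windows, against 1.01% of all windows. AGGTCA, a hexamer that nuclear receptors bind, was found in 4 of the 15 windows, those of ARNTL, PER1 and CRY2 (13.8% of all windows). In ARNTL it is part of the element shown, whereas the elements of CLOCK and NR1D2 end in GGGTCA on their own strand. The cAMP element TGACGTCA was found for none of the members in these windows (1.85% of all). These are matches of letters and say nothing of binding in MUM2B cells.

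The libraries held 16978799 to 17821609 reads in genes with LACTB and 17828472 to 18395631 with empty vector. These were recovered from the deposited FPKM values (fragments per kilobase of exon, divided by a size for each library). That size was 1.759e+07 for empty vector replicate 1 and 1.81071e+07 for LACTB replicate 1, so it was not the number of reads in genes. LACTB itself stood at 173.9, 169.3 and 161.5 FPKM in LACTB cells, against 3.81, 3.39 and 4.71 FPKM in empty vector cells, so all 6 libraries matched their labels. Empty vector replicate 3 stood apart from its group, with 3.61% of its reads from mitochondrially encoded genes whereas replicates 1 and 2 of that group had 5.54% and 5.62% and the LACTB libraries 4.65% to 5.04%. It was the highest of the empty vector libraries for 3 members, the lowest for 6 and in the middle for 1. The labels do not say whether replicates were separate cultures, so p-values measure only how far these libraries differ, and that may be technical. Of 18 melanocyte markers, 17 lay under 1 FPKM in every library, and S100B, PAX3 and OCA2 were listed at 0 throughout; their summed level was 6.66 to 7.23 FPKM with LACTB and 7.62 to 8.10 FPKM with empty vector. Most of that sum was RAB27A (4.85 and 6.002 FPKM on average), whereas MITF (0.864 and 0.657 FPKM) and TYRP1 (0.643 and 0.294 FPKM) were higher in every LACTB library than in any empty vector library. At still lower levels, ERBB3 (0.0578 and 0.142 FPKM) and SLC24A5 (0.0118 and 0.0624 FPKM) were lower in every LACTB library than in any empty vector library. Summed markers of other cell types also differed between LACTB and empty vector cells, each sum through 1 or 2 genes. Epithelial markers (7 of 10 under 1 FPKM in every library) summed to 311.5 to 318.3 FPKM with LACTB and 345.2 to 356.9 FPKM with empty vector, nearly all from KRT8 (means 163.7 and 184.9 FPKM) and KRT18 (143.8 and 161.8 FPKM), while CLDN4 was higher with LACTB (7.15 and 4.82 FPKM), as was ESRP1 (0.282 and 0.0269 FPKM). Endothelial markers (7 of 10 under 1 FPKM) summed to 50.03 to 54.2 FPKM with LACTB and 84.5 to 91.6 FPKM with empty vector; that gap was nearly all CDH5 (13.96 and 49.8 FPKM), with TIE1 at 36.3 FPKM in both groups. Fibroblast markers (9 of 10 under 1 FPKM) summed to 1.05 to 1.204 FPKM with LACTB and 2.35 to 2.63 FPKM with empty vector, a gap mostly of FAP (0.609 and 1.90 FPKM). Their part in the clock results was not tested.

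Of the 9 members that reached a mean of 1 FPKM and were tested, 3 rose with LACTB (CLOCK, NR1D1 and NR1D2), 3 fell (ARNTL, CRY1 and BHLHE40) and 3 passed no threshold (PER1, PER2 and CRY2). Across all 11875 tested genes, 14.8% rose and 17.2% fell, 32% in all, at an adjusted p under 0.05 (limma on log2(FPKM + 1), Benjamini-Hochberg adjustment over all tested genes). The median log2 fold change of the 9 members was 0.10, and its median size regardless of sign was 0.26, against -0.01 and 0.14 over all tested genes. The libraries of the groups did not overlap for 7 members, 4 of them higher and 3 lower with LACTB, against 47.4% of all tested genes (22.3% higher and 25.1% lower). BHLHE40 and CLOCK kept their calls when any library was left out, and so did CRY1. Without LACTB replicate 1 the members that rose numbered 1 and those that fell 2, since NR1D1, NR1D2 and ARNTL each lost their call.

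**Figure D1:**
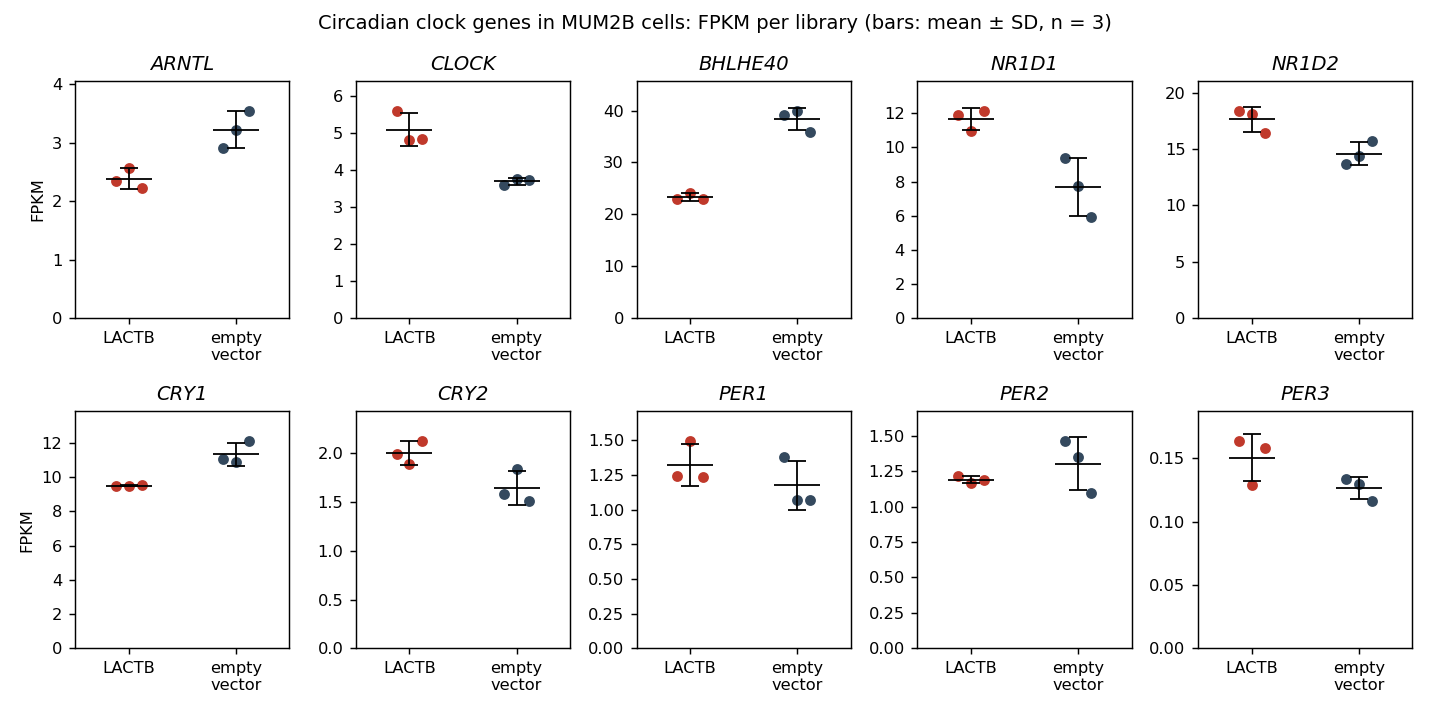
FPKM of each clock gene (vertical axes, from 0, scaled to each gene) in the 3 LACTB libraries (red, left) and the 3 empty vector libraries (dark blue, right), with the mean and SD of each group as bars. The LACTB libraries of BHLHE40 lie at 22.9 to 24.2 FPKM, below the 36.0 to 40.0 FPKM of empty vector, whereas those of CLOCK lie above; for PER1, PER2 and PER3 the groups overlap.

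The activators ARNTL and CLOCK, whose proteins work as a pair, went opposite ways. ARNTL (chromosome 11, 13276652 to 13387266 in GRCh38) had 2.35, 2.57 and 2.22 FPKM in LACTB cells, against 2.91, 3.21 and 3.55 FPKM in empty vector cells. Every LACTB library lay below every empty vector library. The means were 2.38 ± 0.178 and 3.22 ± 0.320 FPKM (SD, n = 3 each), -0.32 on the log2 scale (SE 0.077; limma, adjusted p = 0.0191), from 269 to 298 reads per LACTB library and 344 to 430 per empty vector library. This call was near its threshold: the adjusted p was 0.0541 without LACTB replicate 1, 0.0639 without LACTB replicate 3 and 0.0537 without empty vector replicate 2, 0.0669 as TPM (FPKM rescaled to the same total in each library) and 0.0656 with no filter on low values, and the log2 fold change ran from -0.42 to -0.26 over all alternatives.

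CLOCK (chromosome 4, 55427903 to 55547138) had 5.597, 4.82 and 4.84 FPKM in LACTB cells, against 3.58, 3.75 and 3.73 FPKM in empty vector cells. LACTB replicate 1 was the highest, and again the groups did not overlap. The ratio of means was 1.38, from 975 to 1192 reads per LACTB library and 741 to 801 per empty vector library. CLOCK rose by 0.37 on the log2 scale (SE 0.064; limma, adjusted p = 0.00515), with adjusted p between 0.0111 and 0.02 when single libraries were left out. CLOCK shares 76 exon bases with TMEM165 on the opposite strand, which stood at 10.6 ± 0.424 FPKM with LACTB and 11.9 ± 0.301 FPKM with empty vector (SD, n = 3 each). TMEM165 fell (log2 fold change -0.15, SE 0.045, limma, adjusted p = 0.0444), a call lost when any library was left out (adjusted p 0.0617 to 0.133). As ARNTL fell and CLOCK rose, ARNTL was 0.42, 0.534 and 0.459 times the level of CLOCK in the LACTB libraries, against 0.812, 0.856 and 0.951 times in the empty vector libraries.

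The nuclear receptor genes of the second loop rose. NR1D1 (chromosome 17, 40092787 to 40100725) had 11.9, 10.9 and 12.2 FPKM in LACTB cells, against 9.39, 7.71 and 5.94 FPKM in empty vector cells. The LACTB libraries lay close together, and the empty vector libraries were spread, with replicate 3 the lowest. NR1D1 was 1.52-fold higher with LACTB, the largest rise among the members (log2 fold change 0.56, SE 0.135; limma, adjusted p = 0.0189), on 1725 reads summed over the LACTB libraries and 1143 over those of empty vector. Without empty vector replicate 3 its log2 fold change was 0.41 (limma, adjusted p = 0.0168), whereas the call was lost without LACTB replicate 1 (adjusted p = 0.0565), without LACTB replicate 3 (0.0623) or with no filter on low values (0.078).

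The end of NR1D1 overlaps that of THRA, the thyroid hormone receptor alpha gene, on the opposite strand: 263 exon bases, 9.49% of the exon sequence of NR1D1, are shared. THRA had 4.19, 4.31 and 4.57 FPKM in LACTB cells, against 6.23, 5.81 and 5.52 FPKM in empty vector cells, and fell (log2 fold change -0.36, SE 0.058; limma, adjusted p = 0.00425). NR1D1 and THRA thus moved in opposite directions. How reads of the shared bases were assigned is not stated.

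NR1D2 (chromosome 3, 23945260 to 23980618) had 18.4, 18.1 and 16.4 FPKM in LACTB cells, against 13.7, 14.4 and 15.7 FPKM in empty vector cells. The nearest libraries of the groups, LACTB replicate 3 and empty vector replicate 3, were 16.4 and 15.7 FPKM. The ratio of means was 1.21 (log2 fold change 0.26, SE 0.065; limma, adjusted p = 0.023). The call was lost without LACTB replicate 1 (adjusted p = 0.0695), LACTB replicate 2 (0.0816), empty vector replicate 1 (0.0681) or empty vector replicate 2 (0.0653), and as TPM (0.0747) or with no filter (0.0728), although the log2 fold change stayed between 0.22 and 0.31 over all alternatives. The ratio of NR1D1 to NR1D2 overlapped between the groups, at 0.646, 0.603 and 0.742 with LACTB and 0.686, 0.537 and 0.378 with empty vector.

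BHLHE40, the E-box repressor, changed most. This gene (chromosome 3, 4979116 to 4985323) had 23.0, 24.2 and 22.9 FPKM in LACTB cells, against 39.2, 40.0 and 36.0 FPKM in empty vector cells. It was 1.64-fold lower with LACTB, on 1580 to 1598 reads per LACTB library and 2487 to 2783 per empty vector library. On the log2 scale the change was -0.69 (SE 0.051; limma, adjusted p = 0.000147), the 190th smallest p and the 386th largest change among 11875 tested genes. In both groups BHLHE40 was the most abundant member per length of exon, and it was higher than 88.3% of the tested genes.

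The CRY genes encode the cryptochromes, the main repressors of the ARNTL and CLOCK pair. CRY1 (chromosome 12, 106991364 to 107093829) had 9.46, 9.51 and 9.56 FPKM in LACTB cells, against 11.04, 10.9 and 12.1 FPKM in empty vector cells. It fell by 0.23 on the log2 scale (SE 0.050; limma, adjusted p = 0.0125), to 1.19-fold lower, and the call was lost when the values were rescaled to TPM (adjusted p = 0.105). CRY2 (chromosome 11, 45847118 to 45883248) had 1.995, 1.88 and 2.13 FPKM in LACTB cells, against 1.58, 1.84 and 1.51 FPKM in empty vector cells. Its groups did not overlap either, but LACTB replicate 2 and empty vector replicate 2 differed little. The log2 fold change of 0.19 was not called (limma, adjusted p = 0.112). Its 95% interval, 0.003 to 0.37, is not adjusted for the number of genes tested. With limma voom on the recovered reads the adjusted p of CRY2 was 0.0314. CRY1 was 4.76 ± 0.275 times the level of CRY2 in the LACTB libraries, against 6.98 ± 1.05 times in the empty vector libraries (SD, n = 3 each), with no overlap.

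The PER genes encode the period proteins, which carry the cryptochromes into the repressor complex. All were low in MUM2B cells, and for none did the groups separate. PER1 (chromosome 17, 8140472 to 8156506) had 1.24, 1.49 and 1.23 FPKM in LACTB cells, against 1.38, 1.07 and 1.07 FPKM in empty vector cells. The highest empty vector library lay inside the range of the LACTB libraries, and the log2 fold change was 0.10 (95% interval -0.13 to 0.32; limma, adjusted p = 0.484). PER2 (chromosome 2, 238244038 to 238290102) had 1.21, 1.17 and 1.19 FPKM in LACTB cells, against 1.46, 1.35 and 1.10 FPKM in empty vector cells. Here the LACTB libraries lay inside the range of the others, with a log2 fold change of -0.07 (95% interval -0.28 to 0.14; limma, adjusted p = 0.585). PER3 (chromosome 1, 7784320 to 7845177) had 0.164, 0.129 and 0.158 FPKM in LACTB cells, against 0.133, 0.129 and 0.116 FPKM in empty vector cells, from 65 and 55 reads summed over each group. It was below the filter on low values and was tested only without that filter (limma, adjusted p = 0.615). With 17 to 24 reads per library, PER3 was measured with little precision.

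The order of the levels changed at 2 places. In both groups BHLHE40 and NR1D2 were highest, CLOCK, ARNTL and CRY2 followed in that order after NR1D1 and CRY1, and PER3 was lowest. NR1D1 was above CRY1 in all 3 LACTB libraries, with CRY1 at 0.795, 0.869 and 0.786 times the level of NR1D1, and below it in all 3 empty vector libraries, with CRY1 at 1.18, 1.41 and 2.04 times. This ratio was not planned before the values were seen. PER1 and PER2 lay side by side: with LACTB PER1 was 1.02, 1.28 and 1.04 times PER2, and with empty vector 0.943, 0.795 and 0.975 times, where the FPKM ranges of the genes overlapped. All other neighbours in the order were separated in every library of a group. FPKM is divided by the length of all annotated exons of a gene, so a level is understated where a long annotated exon is not used.

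**Figure D2:**
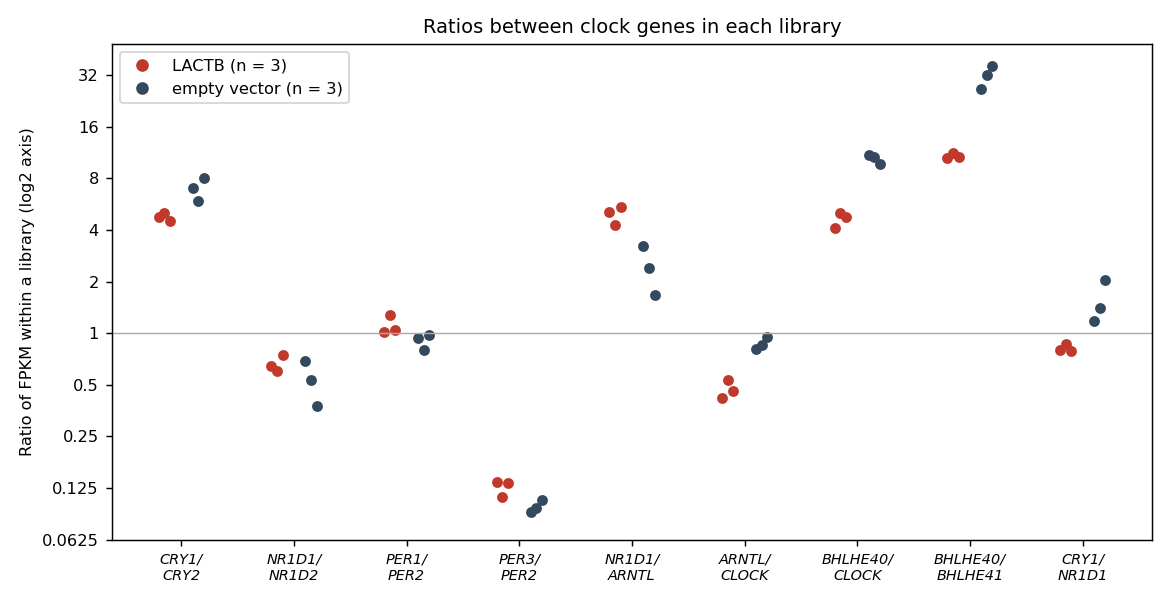
Ratios of FPKM between clock genes within each library (vertical axis, log2 scale; the line marks equal levels), with LACTB libraries in red and left and empty vector libraries in dark blue and right. BHLHE40 is 4.11 to 5.02 times CLOCK in LACTB libraries and 9.64 to 10.9 times in empty vector libraries, whereas the NR1D1 to NR1D2 ratios overlap. The ratios of BHLHE40 to BHLHE41 and of CRY1 to NR1D1 were not planned before the values were seen.

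Ratios within a library do not depend on its scaling. Of 7 ratios between members, 6 did not overlap between the groups, all but NR1D1 to NR1D2. With 3 libraries in each group, an exact two-sided permutation test cannot go below p = 0.1, the value reached by these 6 (0.117 when adjusted over the 7). Among single tested genes 47.4% did not overlap, and the share for ratios of other gene pairs was not computed. Several of the 7 ratios have a gene in common, so they are not independent of each other. The ratio of NR1D1 to ARNTL, repressor to target, was 5.06, 4.25 and 5.47 in LACTB libraries, against 3.23, 2.40 and 1.68 in empty vector libraries. Its mean log2 value was 1.06 higher with LACTB. The largest difference of the 7 was that of BHLHE40 to CLOCK, at -1.18 on the log2 scale.

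Other parts of the clock were read from 3 lists of 51 genes, of which 43 were tested; 5 rose and 8 fell, 30.2% against 32% of all tested genes. Those that fell numbered 3 without LACTB replicate 2 and 5 without empty vector replicate 2. Among paralogues and side loops, 4 of 10 genes were tested, with 2 up and 1 down. BHLHE41, the paralogue of BHLHE40 also called DEC2, had 2.18, 2.14 and 2.17 FPKM in LACTB cells, against 1.48, 1.26 and 0.998 FPKM in empty vector cells. Its ratio of means was 1.74, and it rose by 0.50 on the log2(FPKM + 1) scale (SE 0.093, limma, adjusted p = 0.00713). The pseudocount of 1 shrinks that value for so low a gene, and with a pseudocount of 0.1 it was 0.765. BHLHE40 fell, so that BHLHE40 was 10.5 to 11.3 times its paralogue in LACTB libraries, against 26.4 to 36.0 times in empty vector libraries. The ratio of BHLHE40 to BHLHE41 was chosen after the values were seen. NFIL3, a D-box repressor also called E4BP4, rose to 10.7 ± 0.797 FPKM with LACTB, against 8.83 ± 0.259 FPKM with empty vector (SD, n = 3 each). Its call (limma, adjusted p = 0.019) was lost without LACTB replicate 1 (0.0587), LACTB replicate 3 (0.0655) or empty vector replicate 1 (0.0598), and as TPM (0.0515) or with no filter (0.0574).

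ARNTL2, the paralogue of ARNTL, was the more abundant of the 2 per length and also fell, to 20.7 ± 0.786 FPKM with LACTB, against 24.2 ± 1.42 FPKM with empty vector (SD, n = 3 each; limma, adjusted p = 0.0227). That call was lost without LACTB replicate 1 (adjusted p = 0.0517), LACTB replicate 2 (0.0869) or empty vector replicate 2 (0.0545), and as TPM (0.158), with quantile normalization (0.0504) or with no filter (0.0616). NPAS2, the paralogue of CLOCK, stood at 4.94 ± 0.188 FPKM with LACTB and 5.40 ± 0.360 FPKM with empty vector and passed no threshold (limma, adjusted p = 0.204). The D-box activators DBP and HLF and the receptor genes RORA and RORB lay under 1 FPKM in every library, as did CIART; TEF had a mean under 1 FPKM and was not tested.

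**Figure D3:**
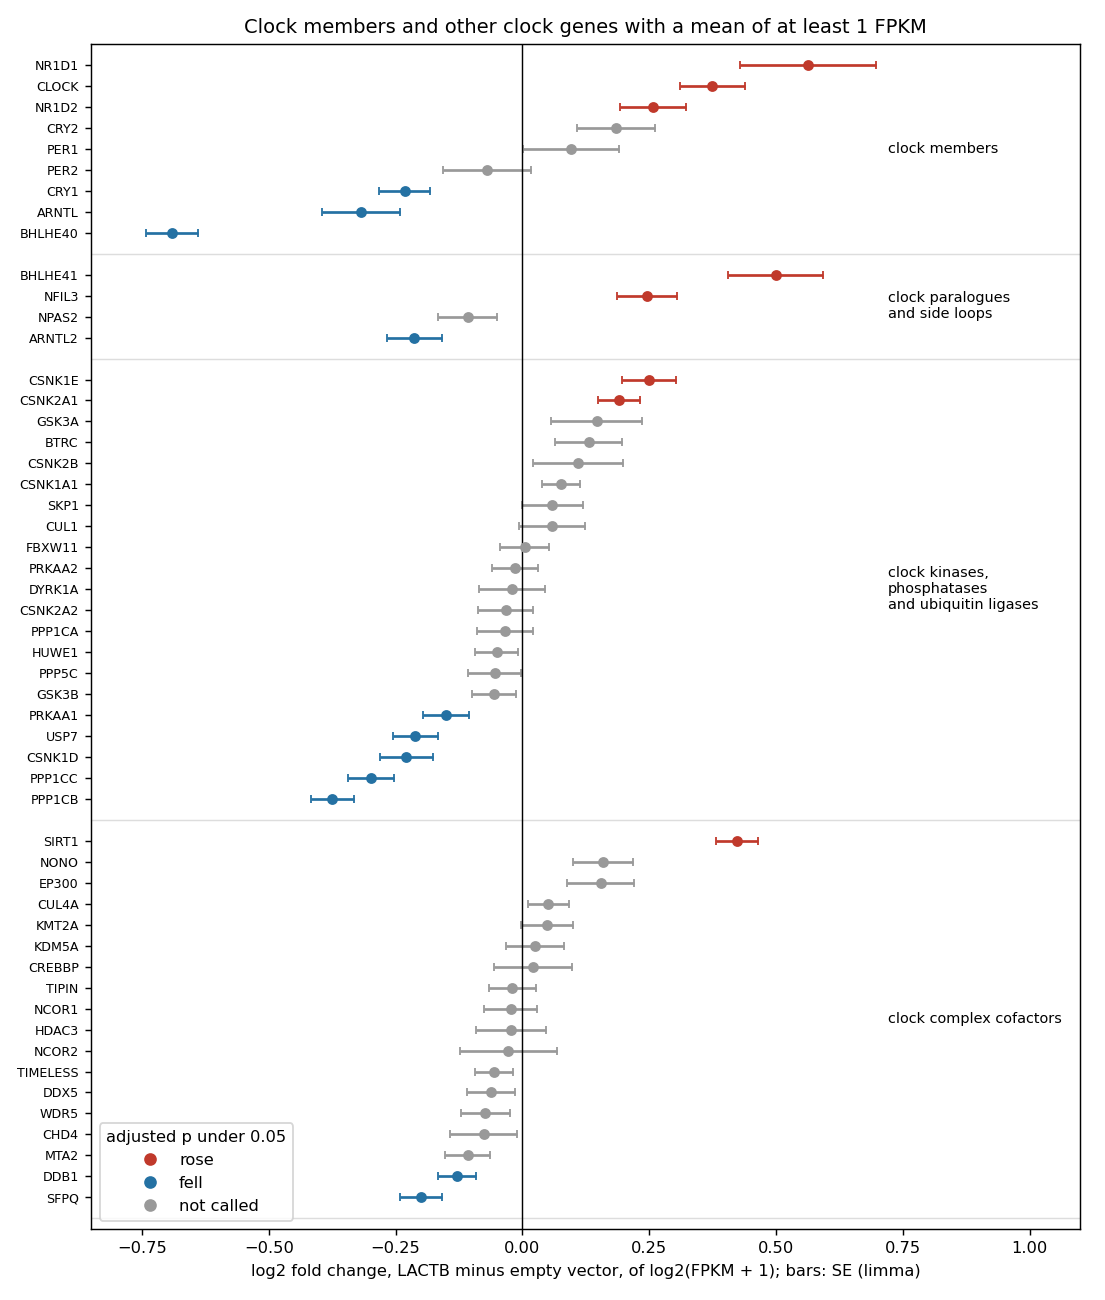
Log2 fold change, LACTB minus empty vector, of the tested clock members and of the tested genes of 3 further lists (horizontal axis; points with SE bars from limma; red for rose, blue for fell and grey for not called). BHLHE40 at -0.69 and NR1D1 at 0.56 are the outermost points, and most kinases, ligases and cofactors lie near 0.

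Among the enzymes that modify clock proteins, 2 of 21 tested genes rose, 5 fell and 14 passed no threshold (median log2 fold change -0.02). CSNK1E, which encodes a casein kinase that phosphorylates the period proteins, rose to 21.4 ± 0.774 FPKM with LACTB, against 17.9 ± 1.06 FPKM with empty vector (SD, n = 3 each; limma, adjusted p = 0.0125). CSNK2A1, a catalytic subunit of casein kinase 2, rose by 0.19 on the log2 scale (limma, adjusted p = 0.0128; 0.055 without LACTB replicate 2). The study relates LACTB to PPP1CA, a catalytic subunit of protein phosphatase 1, an enzyme that also removes phosphate from period proteins. PPP1CA stood at 51.2 ± 1.199 FPKM with LACTB and 52.5 ± 3.52 FPKM with empty vector (SD, n = 3 each; limma, adjusted p = 0.669). The genes of the other catalytic subunits fell: PPP1CB was 1.31-fold lower (log2 fold change -0.38; limma, adjusted p = 0.00095) and PPP1CC 1.23-fold lower (log2 fold change -0.30; limma, adjusted p = 0.00345). USP7, a deubiquitinase that stabilizes CRY1, fell to 19.4 ± 0.472 FPKM with LACTB, against 22.7 ± 0.997 FPKM with empty vector (SD, n = 3 each; limma, adjusted p = 0.0126), a call lost without LACTB replicate 2 (0.0556) and as TPM (0.119).

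Of 18 tested cofactors of the clock complexes, 1 rose, 2 fell and 15 passed no threshold (median log2 fold change -0.02). SIRT1, the NAD-dependent deacetylase that binds the CLOCK and ARNTL pair, had 8.47 ± 0.160 FPKM with LACTB and 6.07 ± 0.123 FPKM with empty vector (SD, n = 3 each), 0.42 higher on the log2 scale (SE 0.041; limma, adjusted p = 0.000521). SFPQ, an RNA-binding partner of the period complex, was 1.15-fold lower (limma, adjusted p = 0.0117). DDB1, a ubiquitin ligase adaptor, was 1.10-fold lower (limma, adjusted p = 0.0369), a call lost when any library was left out (adjusted p 0.0578 to 0.105).

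Among 9 tested genes described as outputs of the clock, 5 rose, 1 fell and 3 passed no threshold (median log2 fold change 0.28), beside 14.8% risen and 17.2% fallen among all tested genes. NAMPT, the rate-limiting enzyme of NAD salvage, had 18.1 ± 1.161 FPKM with LACTB and 10.7 ± 0.740 FPKM with empty vector (SD, n = 3 each), 0.70 higher on the log2 scale (SE 0.064; limma, adjusted p = 0.000374). TSC22D3, a glucocorticoid-induced leucine zipper gene, rose 1.89-fold, and CDKN1A, which halts the cell cycle, 1.87-fold (limma, adjusted p = 0.000933 and 0.000402). WEE1, a mitotic kinase with E-boxes in its promoter in the mouse, was 1.34-fold lower (limma, adjusted p = 0.0072). All these genes have other regulators besides the clock.

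Genes described as induced by a fresh supply of serum were read because serum also sets the clock and induces PER1. Of 11 tested, 3 rose, 1 fell and 7 passed no threshold (median log2 fold change 0.08), so that 4 of 11 were called, a share near the 32% of all tested genes. EGR1 had 18.6 ± 0.220 FPKM with LACTB and 6.30 ± 0.544 FPKM with empty vector (SD, n = 3 each), 1.42 higher on the log2 scale (SE 0.059; limma, adjusted p = 1.1e-05). JUNB rose 1.64-fold and ATF3 1.73-fold (limma, adjusted p = 0.00453 and 0.00531), whereas JUN was 1.48-fold lower (limma, adjusted p = 0.000933). The summed level of the list overlapped between the groups, at 592.5 to 651.8 FPKM with LACTB and 526.8 to 663.1 FPKM with empty vector. Most of that sum was 1 gene that passed no threshold, FOSL1, at 376.8 to 405.1 FPKM with LACTB and 295.9 to 409.2 FPKM with empty vector, lowest in empty vector replicate 3, so the sum says little of the other genes. The part of serum timing in the clock results was not tested.

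The 3 tested genes whose pattern over the 6 libraries was nearest to that of BHLHE40 were TLE4, KIF20A and KIAA1549L, by the root mean square difference of log2(FPKM + 1) values centred on each gene. The differences were 0.0257, 0.0298 and 0.0308 on the log2 scale. TLE4 had 11.5, 12.4 and 12.2 FPKM in LACTB cells, against 20.7, 20.9 and 18.6 FPKM in empty vector cells.

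**Figure D4:**
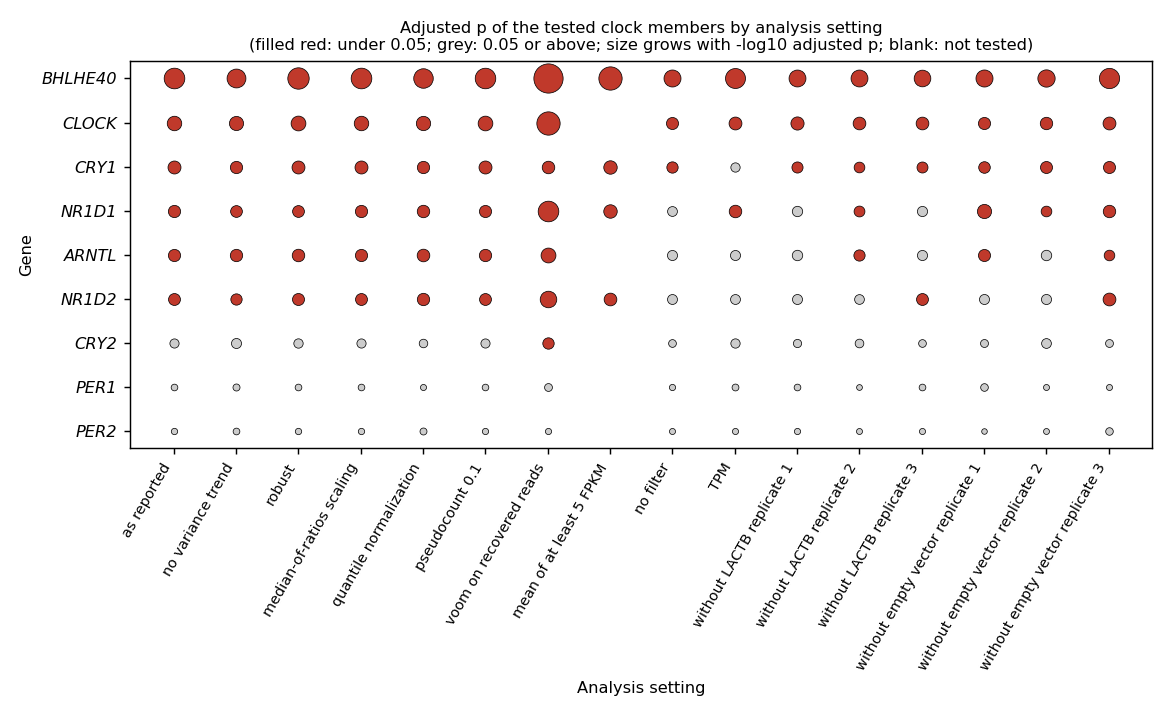
Adjusted p of the 9 tested clock members (rows) under the reported analysis and its alternatives (columns), except the replicate block and the stricter threshold, which are not drawn. Red marks values under 0.05, grey values of 0.05 or above, larger dots smaller values, and a blank a gene below the filter. BHLHE40 and CLOCK are red in every column where they were tested, whereas ARNTL, NR1D1 and NR1D2 turn grey when some single libraries are left out.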

How the data were processed

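The authors deposited 1 file per library with FPKM values for 58735 genes, all found by ID in GENCODE 29 (GRCh38). The submitters' processing notes name HISAT2 2.0.5, featureCounts 1.5.0-p3 and DESeq2 1.16.1 without roles; how reads were trimmed, assigned to a strand or annotated was not given in the sources used here. Divided by a constant per library, FPKM times exon length came out whole for 100% of nonzero values (tolerance 0.1 reads), which gave the reads. Genes averaging 1 FPKM or more were fitted with limma 3.58.1 in R 4.3.3 on log2(FPKM + 1), with a variance trend and no covariate; a call needs a Benjamini-Hochberg adjusted p under 0.05. Such fold changes understate changes of low genes. The script was tested on simulated data. Chi-square per degree of freedom between replicates was 1.97 to 11.2, so each library counted as 1 sample.

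Members and lists were chosen with earlier results of these data known. Some clock genes are not reported here and were left out of the lists. Named genes were all members, LACTB, genes sharing exons with a member and the 3 nearest patterns. Up to 3 risen and 3 fallen genes per list, by smallest p, were also named. KLF10, ALAS1 and some others called are counted only. NPAS2, PPP1CA, FOSL1, CSNK1D and the marker genes were named after their values were seen. Alternatives were a pseudocount of 0.1, other filters, scalings and variance models, voom, a stricter threshold, a replicate block and each library left out. Among the scalings, the median-of-ratios factor was 1.005 in all 6 libraries, so that alternative could change little and says little of robustness to scaling.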

Additional observations from a re-analysis of the deposited data

How the results depend on the processing

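Over all genes, 1155 rose at a mean of at least 5 FPKM, 1295 fell as TPM, and 847 rose and 1004 fell at an adjusted p under 0.01. The TPM values are larger than the FPKM values, which summed to 259456 to 285400 per library. The filter and the pseudocount of 1 were kept as TPM, so both weighed less there, besides the change of totals. With single libraries left out, 1115 to 1505 rose and 1388 to 1800 fell. Of the clock members, 1 rose without a filter, 1 fell as TPM, and 1 rose and 1 fell at an adjusted p under 0.01; with single libraries left out 1 to 3 rose and 2 to 3 fell. Of the other clock genes, 4 fell as TPM and 5 with quantile normalization, 2 rose and 2 fell at the stricter threshold, and 4 to 5 rose and 3 to 6 fell with single libraries left out (3 fell without LACTB replicate 2, 5 without empty vector replicate 2). Of the clock outputs and serum genes together, 8 rose and 2 fell, also with each single library left out.

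The replicate numbers did not pair the libraries: same-numbered libraries correlated at -0.126, 0.0194 and -0.0438 in their deviations from the group means, and no library correlated best with its own number. With a replicate block, 1155 genes rose and 1324 fell; of the other clock genes 3 rose and 3 fell. Among the members ARNTL (limma, adjusted p = 0.0519) and NR1D2 (adjusted p = 0.0741) lost their call under the block.

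With single libraries left out, the log2 difference of CRY1/CRY2 ran from -0.66 to -0.44, NR1D1/NR1D2 from 0.12 to 0.55, PER1/PER2 from 0.19 to 0.35, PER3/PER2 from 0.31 to 0.46, NR1D1/ARNTL from 0.81 to 1.29, ARNTL/CLOCK from -0.99 to -0.81 and BHLHE40/CLOCK from -1.24 to -1.09. Of the named genes at a mean of 1 FPKM or more, those that reversed were PPP1CA, TIE1 and FOSL1, none of them called. The log2 fold change of PPP1CA ran from -0.086 without empty vector replicate 3 to 0.009 without empty vector replicate 1. That of TIE1, -0.001 as reported, was 0.023 as TPM, 0.055 with quantile normalization, 0.033 with voom and -0.030 to 0.041 with single libraries left out; that of FOSL1, 0.10 as reported, ran from -0.050 without empty vector replicate 3 to 0.183 without empty vector replicate 1. The cause of these differences was not tested. At 17 to 24 reads per library PER3 is limited by depth.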
